A study of Mus musculus with 22 samples.

Results

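Concanavalin A (ConA) blasts of CD4+ T cells were compared with 6 cultures of activated B cells, gene by gene, to describe what separates dividing T cells from dividing B cells in mouse. The comparison used 7 of the 22 poly(A) RNA-Seq libraries of the series, 1 library of ConA-activated CD4+ T cells and 6 libraries of activated B cells. These libraries were taken by their labels and not by any measured value. The B cells had been stimulated with aBCD180, with aCD40+IL4, with LPS alone or with LPS plus a further agent (LPS+IL4, LPS+IL21 or LPS+a-d-dextran), and are called the 6 cultures here. Per the labels, mature B cells came from C57BL/6J spleens by negative selection, in which the other cells are captured and the B cells are left untouched. The labels give neither doses nor culture times, and they say nothing further of how the ConA culture was made. A library labelled CD4+ T, a library labelled CD4+ T MUT and a library of splenic B cells, all 3 without a named stimulus, served as a further comparison that took no part in the calls. The label does not say what MUT is. Every label has 1 library, so no spread between animals or cultures of the same kind was available. No B culture had ConA and no T library had a B-cell stimulus. Cell type, stimulus and culture conditions therefore cannot be told apart in the blasts.

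T and B lymphocytes recognise antigen through receptors that are built on the same plan. A membrane receptor is joined to invariant signalling chains (CD3 and CD247 in T cells, CD79a and CD79b in B cells), which Src-family kinases phosphorylate and which then recruit ZAP70 in T cells or SYK in B cells. ConA is a plant lectin that cross-links glycoproteins of the T-cell surface and drives T cells into division, while LPS (bacterial lipopolysaccharide) and antibodies to CD40 or CD180 are known to drive B cells into division. CD4+ T blasts are known for IL2, the IL2 receptor and CD40 ligand, and B blasts for MHC class II, costimulatory ligands and antibody secretion.

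Levels are in TPM, the share of each transcript in a library after correction for gene length, scaled to the same total in every library. Differences are on the log2(TPM + 1) scale, ConA minus culture, and understate the change of genes at low TPM. A gene was called higher or lower when the ConA library differed from every one of the 6 cultures by at least 2 on this scale (4-fold) in the same direction, with at least 10 TPM in ConA or as the median of the cultures on the higher side. The smallest difference quoted for a gene is the one from its nearest culture. This is a rule of size and not a test, since 1 library against 6 cannot go below p = 0.143 in an exact permutation test. Among protein-coding rows, 20628 were read after leaving out 42 chromosome Y genes and 4 named genes.

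The ConA library held 147.9 M expected counts, against 30.8 M in the LPS culture, the lowest, and 88.2 M in LPS+IL4, the highest. Counting error alone therefore gives a 95% interval of -3.8% to 3.9% at about 10 TPM in ConA and of -8.7% to 9.3% in LPS, the shallowest culture. All 10 T-cell markers lay above every culture, with a summed level of 3414 TPM in ConA against 45.6 to 213.5 TPM in the cultures. All 10 B-cell markers were lower, with a summed 6.28 TPM in ConA against 2508 to 10541 TPM in the cultures, as the labels say. In bulk RNA, fewer cells of a type and less RNA per cell cannot be told apart. Summed chromosome Y expression was 109.6 TPM in ConA and 126.5 TPM in LPS+IL21, against 0.0 to 0.8 TPM in the other 5 cultures, so the source mice may differ in sex. Length minus effective length, which enters TPM, was 49.0 in ConA and LPS+IL4 and 48.57 in the other 5 cultures. Among the unstimulated libraries, both CD4+ T libraries had 0.2 TPM of chromosome Y genes and 48.57, against 345.0 TPM and 49.0 in splenic B, so there cell type, chromosome Y expression and length correction cannot be told apart. The part of either difference in the results was not tested. Summed globin and other erythroid markers were 0.85 TPM in ConA and 4.03 TPM in LPS+IL4, against 1224 to 11054 TPM in the other 5 cultures, and none of these genes was called. Summed myeloid markers were 26.3 TPM in ConA, 25.2 of them from Cd68 and with S100a8 and S100a9 at 0, against 93.1 to 293.6 TPM in the cultures, and 2 of the 11 (Adgre1 and Cybb) were called lower. Summed mast cell and basophil markers were 2.08 TPM in ConA against 0.57 to 12.4 TPM in the cultures, with none of 8 called. The part of such other cells in the results was not tested.

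The ConA blasts differed from every B culture in 400 genes. Of the 20628 rows, 244 were higher in ConA (1.18%) and 156 were lower (0.756%). Of the 8615 genes at 10 TPM or more on a side these were 2.83% and 1.81%. Each count of calls in a gene list below is to be read beside these shares. At a larger size, 150 of the higher genes and 94 of the lower genes were at least 3 from every culture, and 47 and 42 were at least 5. The median smallest difference was 3.36 in the higher genes and -3.39 in the lower genes. For scale, the median SD between the 6 cultures on the same log2 scale was 0.39 over the 8615 genes, 0.45 in the higher genes and 0.84 in the lower genes. Regardless of size, 1412 of the 8615 genes lay above every culture, 3418 below every culture and 3785 within their range. Many calls set a present transcript against a nearly absent one. Of the higher genes 66 were under 1 TPM in every culture, and 99 of the lower genes were under 1 TPM in ConA. The median difference from the culture median over the 8615 genes was -0.38 in TPM, and -0.09 or -0.04 after rescaling TPM by TMM or RLE factors, so ConA levels sit slightly low in TPM. Under those factors 292 or 306 genes were higher and 138 or 139 were lower. Against LPS+IL4 alone, the culture with the same length correction, 372 genes were higher and 382 lower in ConA. Against LPS+IL21 alone, the culture with chromosome Y expression, 531 were higher and 425 lower.

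The antigen receptor machinery of T cells was higher in the ConA blasts as a group. All 25 genes of the T-cell receptor list lay above every culture, beside 1412 of the 8615 expressed genes, and 18 were called higher, none lower, with a median difference from the culture median of 6.50 beside -0.38 over all expressed genes. Cd3e, an invariant signalling chain, was at 334 TPM in ConA against 0.03 to 2.12 TPM (median 0.61) in the cultures, a smallest difference of 6.74. Cd3g, another CD3 chain, was at 436 TPM in ConA against 0.30 to 2.25 TPM (median 1.00). Cd4, the coreceptor for MHC class II, was at 603 TPM in ConA against 0.06 to 1.05 TPM (median 0.34), and its smallest difference of 8.20 was the largest of the list. Each of these transcripts was abundant in ConA and nearly absent from the cultures. Cd247, the zeta chain, had 216 TPM in ConA against 0.96 to 3.67 TPM (median 1.30) in the cultures. Downstream, the kinase Zap70 had 372 TPM in ConA against 0.85 to 19.4 TPM (median 1.42), with aBCD180 the highest culture. Themis, an adaptor that tunes receptor signals, had 70.7 TPM in ConA against 0.01 to 0.23 TPM (median 0.13). The groups did not overlap for any of these kinases and chains. The membrane adaptor Lat, on which the signalling complex assembles, had 398 TPM in ConA against 1.04 to 6.18 TPM (median 2.07). Cd5, a scavenger-receptor family protein that restrains receptor signals and also marks B-1 cells, had 433 TPM in ConA against 0.34 to 2.57 TPM (median 1.59). Over the 18 called genes the smallest difference ran from 2.23 in Cd2 to 8.20 in Cd4.

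Not every gene of the T-cell signalling list was silent in B blasts. Lck, the Src-family kinase that phosphorylates CD3, was at 501 TPM in ConA against 34.3 to 207 TPM (median 81.3) in the cultures and was not called, since aBCD180 lay within 1.27. Fyn, its relative, was at 195 TPM in ConA against 25.9 to 63.1 TPM (median 39.7). The adaptor Lcp2 (SLP-76) was at 183 TPM in ConA against 0.20 to 48.3 TPM (median 1.10), and was not called because of the 48.3 TPM in LPS+IL4. Fyn and Lcp2 met the rule after rescaling by TMM or RLE factors. Cd2, an adhesion receptor of T cells and also of mouse B cells, was called at 684 TPM in ConA against 10.9 to 145 TPM (median 64.5), with a smallest difference of only 2.23. Rasgrp1, a Ras exchange factor, was at 146 TPM in ConA against 16.4 to 67.8 TPM (median 28.7), which was above every culture but short of the rule.

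**Figure D1:**
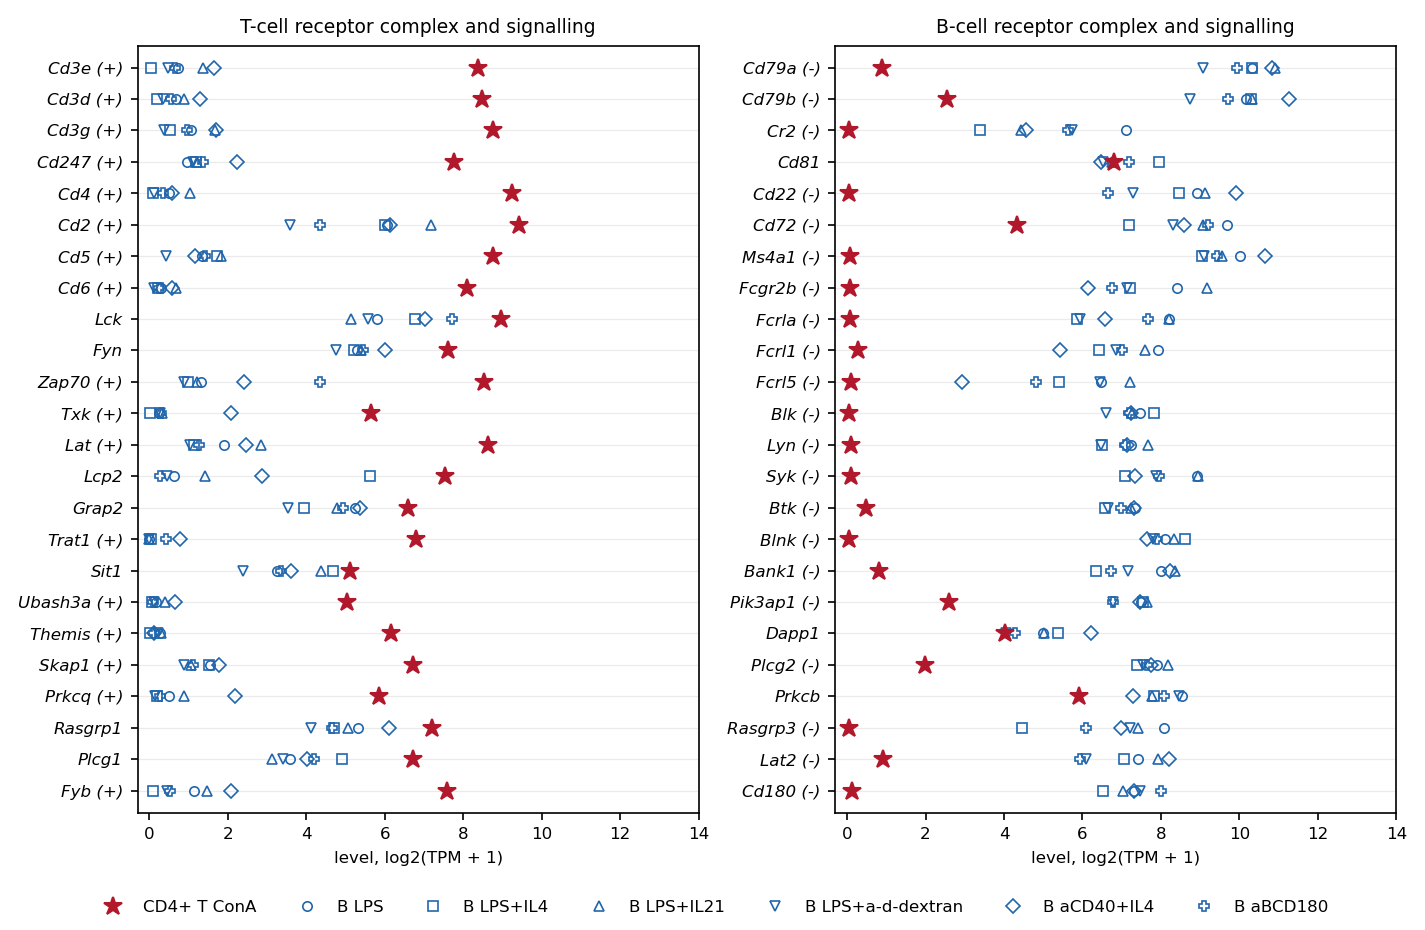
Level of 24 genes of the T-cell receptor list (left) and 24 of the B-cell receptor list (right) as log2(TPM + 1), with the ConA library as a red star and the 6 activated B cultures as blue open symbols; (+) and (−) mark genes called higher and lower. The stars lie right of every blue symbol in all 24 T-cell genes drawn and left of every blue symbol in 23 of the 24 B-cell genes drawn (Dapp1 among them by a margin that TMM or RLE rescaling removes), and the calls drawn number 17 and 21.

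The B-cell receptor list was the reverse. Of its 25 genes 22 were called lower in ConA and none higher, with a median difference of -7.00. Cd79a, the signalling chain of the B-cell receptor, was at 0.84 TPM in ConA against 536 to 1921 TPM (median 1278) in the cultures. Cd79b, its partner chain, was at 4.89 TPM in ConA against 427 to 2478 TPM (median 1196). Ms4a1, which encodes CD20, was at 0.06 TPM in ConA against 527 to 1605 TPM (median 718), and its smallest difference of -8.96 was the largest among all lower genes. In all 3 the ConA value was below that of every culture by a wide margin. Syk, the kinase recruited to CD79a and CD79b, was at 0.07 TPM in ConA against 136 to 489 TPM (median 239). Btk, the Tec-family kinase of B cells, was at 0.41 TPM in ConA against 95.1 to 159.8 TPM (median 137). Blnk, the adaptor that links SYK to BTK, was at 0.04 TPM in ConA against 201 to 393 TPM (median 257). The kinases and adaptors thus followed the receptor chains. The inhibitory receptor Cd22 was at 0.04 TPM in ConA against 98.8 to 962 TPM (median 418), with aBCD180 and LPS+a-d-dextran the lowest cultures. Fcgr2b, the inhibitory Fc receptor, was at 0.05 TPM in ConA against 70.0 to 572 TPM (median 143). Lyn, the main Src-family kinase of B cells, was at 0.07 TPM in ConA against 87.4 to 202 TPM (median 136). Over the 22 called genes the smallest difference ran from -8.96 in Ms4a1 to -2.84 in Fcrl5.

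3 genes of the list were not called. Cd81, a tetraspanin that many cell types carry, was at 111 TPM in ConA, within the 87.9 to 244 TPM (median 107) of the cultures. Prkcb, a protein kinase C of B-cell receptor signalling, was at 59.1 TPM in ConA against 154 to 371 TPM (median 247). Dapp1, an adaptor that binds membrane phosphoinositides, was at 15.4 TPM in ConA against 15.6 to 73.7 TPM (median 31.1), so ConA and the lowest culture were level. Fcrl5, an Fc receptor-like protein, was called at 0.07 TPM in ConA against 6.65 to 146 TPM (median 63.7), with a smallest difference of -2.84 that becomes -4.71 without the aCD40+IL4 culture.

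As background, both lineages run the same signalling steps with different members of the same families, and 16 such T and B pairs were set side by side. In 5 pairs the T member was higher and the B member lower in ConA, among them Zap70 and Syk, Lat and Lat2, Themis and Themis2, and Bcl11b and Bcl11a. Among the 16, 7 T members were called higher and 11 B members lower, none in the opposite direction, and in 3 pairs neither was called. For Zap70 over Syk the log2 ratio of TPM + 1 was 8.44 in ConA against -7.71 to -3.59 in the cultures. It was 5.51 and 5.35 in the unstimulated CD4+ T and CD4+ T MUT libraries against -7.06 in splenic B. For Lat over Lat2 it was 7.71 in ConA against -5.90 to -4.66 in the cultures. The sign of both ratios was opposite in the T and B blasts. The pair of Lck and Lyn, in which only Lyn was called, had 8.87 in ConA against -2.53 to 0.62. Plcg1 over Plcg2, the phospholipases that both receptors use to release calcium, had 4.72 in ConA against -5.06 to -2.46, although Plcg1 itself missed the rule at 1.79. Members were assigned to T or B by known role, so the directions in these pairs were largely fixed beforehand and give no support. The ratio in ConA lay above every culture in 15 of the 16 pairs. The exception was Id2 over Id3, inhibitors of E proteins, with -0.35 in ConA against -4.18 to 0.13.

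**Figure D2:**
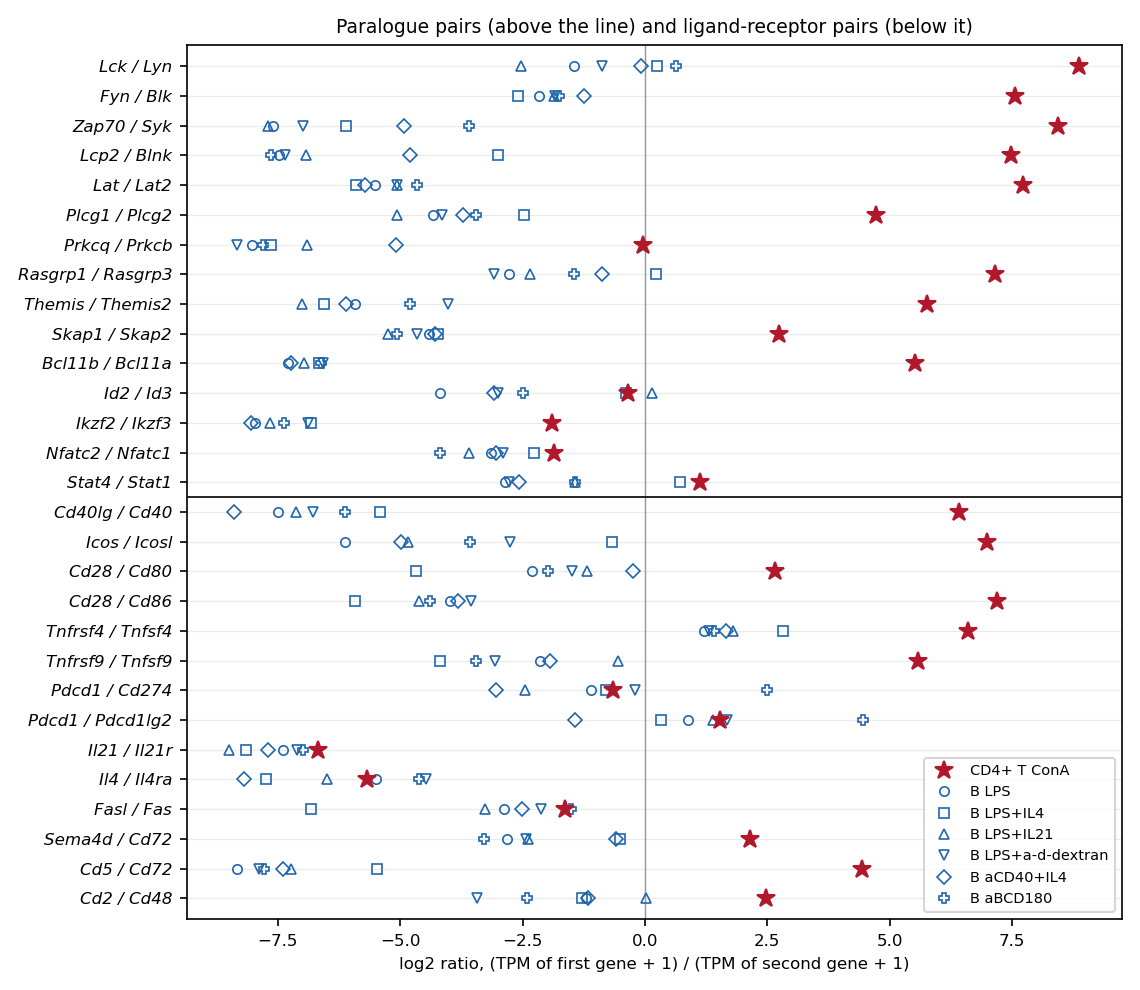
Log2 ratio of TPM + 1 of the T member over the B member in each library, for 15 of the 16 paralogue pairs and 14 ligand and receptor pairs, with ConA as a red star and the 6 cultures as blue open symbols. The ConA ratio lies right of all 6 cultures in 14 of the drawn paralogue pairs and in 10 ligand and receptor pairs. Members were assigned to T or B by known role, so this direction was largely fixed beforehand.

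Promoter windows of 6 called genes are printed below to show the regulatory sequence at the starts of genes that separate the lineages. They run from 250 bases before to 50 bases after the gene's start, come from RefSeq on GRCm38.p6 and are written 5′ to 3′ on the strand of the gene. Capitals mark every match, on either strand, to 7 motifs: the octamer ATGCAAAT of Oct factors, the EBF palindrome (TCCC and GGGA around any 2 bases), the PU.1 site GAGGAAGT, the GATA site AGATAA, the E-box CAGGTG, the AP-1 site TGANTCA and the CRE site TGACGTCA. The windows were chosen after the matches had been seen. Il2 (chr3:37125905-37126204, minus strand), Gzmb (chr14:56262285-56262584, minus strand) and Cd3g (chr9:44980382-44980681, minus strand) were higher in ConA.
Il2: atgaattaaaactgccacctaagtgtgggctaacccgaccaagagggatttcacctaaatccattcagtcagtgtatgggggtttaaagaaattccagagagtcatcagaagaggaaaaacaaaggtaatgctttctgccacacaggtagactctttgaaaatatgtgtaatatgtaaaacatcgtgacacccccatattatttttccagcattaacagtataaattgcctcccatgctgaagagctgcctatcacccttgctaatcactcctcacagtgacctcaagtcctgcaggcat
Gzmb: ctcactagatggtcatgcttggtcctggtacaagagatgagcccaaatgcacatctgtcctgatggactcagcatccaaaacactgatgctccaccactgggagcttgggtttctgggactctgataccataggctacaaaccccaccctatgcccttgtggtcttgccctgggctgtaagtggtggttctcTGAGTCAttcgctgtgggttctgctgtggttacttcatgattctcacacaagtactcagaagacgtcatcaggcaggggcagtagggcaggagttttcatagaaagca
Cd3g: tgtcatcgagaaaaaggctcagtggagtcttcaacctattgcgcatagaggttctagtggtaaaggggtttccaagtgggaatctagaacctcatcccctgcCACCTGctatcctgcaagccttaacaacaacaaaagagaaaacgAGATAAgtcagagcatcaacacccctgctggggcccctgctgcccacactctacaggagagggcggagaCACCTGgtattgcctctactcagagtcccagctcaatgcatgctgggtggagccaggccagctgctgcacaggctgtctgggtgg
Blnk (chr19:40994172-40994471, minus strand), Cd22 (chr7:30878979-30879278, minus strand) and Tlr9 (chr9:106222348-106222647, plus strand) were lower in ConA.
Blnk: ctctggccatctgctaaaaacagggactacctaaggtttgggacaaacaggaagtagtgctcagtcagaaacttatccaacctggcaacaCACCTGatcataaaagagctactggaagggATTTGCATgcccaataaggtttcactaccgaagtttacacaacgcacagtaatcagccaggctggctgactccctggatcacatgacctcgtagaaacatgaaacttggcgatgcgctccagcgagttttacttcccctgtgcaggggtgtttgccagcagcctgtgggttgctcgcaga
Cd22: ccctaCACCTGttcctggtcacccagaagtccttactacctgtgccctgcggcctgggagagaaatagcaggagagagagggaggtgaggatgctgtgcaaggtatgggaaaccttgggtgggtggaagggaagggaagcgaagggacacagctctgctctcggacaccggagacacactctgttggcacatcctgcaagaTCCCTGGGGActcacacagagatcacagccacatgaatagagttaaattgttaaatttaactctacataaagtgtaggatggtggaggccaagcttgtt
Tlr9: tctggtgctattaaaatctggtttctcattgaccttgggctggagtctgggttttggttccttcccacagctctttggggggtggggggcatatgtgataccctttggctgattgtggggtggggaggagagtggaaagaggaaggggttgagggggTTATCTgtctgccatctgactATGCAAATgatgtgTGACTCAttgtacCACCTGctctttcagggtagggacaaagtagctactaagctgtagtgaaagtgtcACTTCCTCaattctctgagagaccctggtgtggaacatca

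The Gzmb window holds an AP-1 site that begins 58 bases before the start, and the Cd3g window a GATA site that begins 104 bases before it, with E-boxes on the other strand. The Il2 window matched none of the 7 motifs, which says only that these letters are not in it. In the Blnk window an octamer on the other strand begins 130 bases before the start, and an E-box 160 bases before it. An EBF palindrome begins 49 bases before the start of Cd22. Tlr9 has an octamer that begins 72 bases and an AP-1 site that begins 58 bases before the start, with a GATA site and an E-box beside them. Its PU.1 site lies after the start. No match overlaps another in the printed windows. Such matches also occur by letters alone over all windows, the E-box most often and the EBF palindrome least. Of 19542 windows of the rows read, from 15996 genes, 1.6% hold the octamer, 1.0% the EBF palindrome, 3.2% the PU.1 site, 9.4% the GATA site, 19.6% the E-box, 7.0% the AP-1 site and 2.4% the CRE site. Windows were at hand for 74.2% of the higher and 67.9% of the lower genes, under 80%, so a comparison of motif shares between these sets is void.

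Some transcription factors of each lineage were called, a smaller part than of the receptor lists. Of 20 T-lineage transcription factors 6 were called higher in ConA and none lower, with a median difference of 2.25. Tcf7, which encodes TCF1, was at 275 TPM in ConA against 0.97 to 5.43 TPM (median 3.42) in the cultures. Gata3, the GATA factor of CD4+ T cells, was at 57.5 TPM in ConA against 0.11 to 0.55 TPM (median 0.12). Bcl11b, needed for T-lineage commitment, was at 45.6 TPM in ConA against 0 to 0.68 TPM (median 0.10). Lef1, a partner of TCF1, and Tox were the other members called on this pattern. The sixth was Eomes, a T-box factor of effector and memory T cells and of NK cells, with 114 TPM in ConA against 0.05 to 7.08 TPM (median 0.23). Its smallest difference of 3.83 becomes 6.41 without aCD40+IL4, the culture that also held the most summed CD8 T and NK markers (42.6 TPM, against 1.78 to 4.94 TPM in the other 5 cultures). That sum was 177.2 TPM in ConA, but Eomes is itself in the list and gave 114 TPM of it. Nkg7 and Cd8b1 gave 32.8 and 29.6 TPM, and the other 7 markers, Cd8a among them at 0.28 TPM, were under 1 TPM. The part of other lymphocytes in these values was not tested.

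Other helper-subset factors were not called. Tbx21 (T-bet) was at 0.92 TPM in ConA against 0.02 to 5.06 TPM (median 2.97) in the cultures. Foxp3, the factor of regulatory T cells, was at 6.31 TPM in ConA against 0.17 to 0.38 TPM (median 0.20). It missed the rule only by being under 10 TPM, with differences of 2.41 to 2.64 from the cultures. So did Rora (2.58 to 3.14) and Ikzf2 (2.09 to 2.45). Stat4, which carries IL12 signals, was at 180.1 TPM in ConA against 12.0 to 229.9 TPM (median 20.8), with LPS+IL4 above the T blasts.

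Of 20 B-lineage factors 10 were called lower and none higher, with a median difference of -2.81. Pax5, which maintains B-cell identity, was at 0.05 TPM in ConA against 182 to 584 TPM (median 327) in the cultures. Ebf1, a factor of B-cell specification, was at 0.16 TPM in ConA against 35.4 to 79.5 TPM (median 58.3). Spib, an ETS factor of B cells, was at 0.56 TPM in ConA against 249 to 503 TPM (median 435). These 3 were almost silent in ConA. Pou2af1, the octamer coactivator OBF1, was called at 22.3 TPM in ConA against 192 to 1368 TPM (median 438), so the T blasts kept a measurable level. Bcl11a, a zinc-finger factor of B and dendritic cell precursors, was at 0.02 TPM in ConA against 98.9 to 252 TPM (median 137). Ikzf3 (Aiolos), which T cells also express, was the called member with the least difference, at 19.6 TPM in ConA against 114 to 343 TPM (median 192). Among the members not called were factors that activated lymphocytes of both kinds use. Irf4 was at 212 TPM in ConA, within the 60.2 to 272 TPM (median 157) of the cultures. Irf8 was at 121 TPM in ConA against 266 to 669.9 TPM (median 447). Xbp1, a factor of the secretory programme, was at 200.0 TPM in ConA, within the 58.5 to 447 TPM (median 132) of the cultures.

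Many transcripts of MHC class II presentation were lower in the T blasts, though not all were absent. Of 15 genes 8 were called lower and none higher, with a median difference of -4.56. H2-Aa, a class II alpha chain, was at 4.69 TPM in ConA against 544 TPM in aBCD180, 4028 TPM in aCD40+IL4, 1584 TPM in LPS, 394 TPM in LPS+a-d-dextran, 3454 TPM in LPS+IL21 and 2771 TPM in LPS+IL4. LPS+a-d-dextran and aBCD180 were the low cultures for this gene. H2-Ab1, a class II beta chain, was at 61.4 TPM in ConA against 329 to 3667 TPM (median 1694), a smallest difference of only -2.40. The invariant chain Cd74 was at 101 TPM in ConA against 1737 to 15991 TPM (median 6909.8). Ciita, the master coactivator of class II genes, was at 0.04 TPM in ConA against 19.6 to 444 TPM (median 109). So Ciita was near 0 in ConA while H2-Ab1, H2-Eb1 and Cd74 were still read well above 0. H2-Eb2 was called at 0.06 TPM in ConA against 5.45 to 53.0 TPM (median 25.2), a call lost in FPKM at -1.86. Among genes not called, the peptide exchange factor H2-DMa was at 44.1 TPM in ConA, within 41.6 to 591 TPM (median 175).

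Part of the Toll-like receptor system was lower in the T blasts. Of 15 genes 5 were called lower and none higher, beside 1.81% called lower over all expressed genes. The median difference was -1.57. Cd180 (RP105), a surface relative of TLR4, was at 0.09 TPM in ConA against 91.0 to 257 TPM (median 159) in the cultures. Its partner Ly86 (MD-1) was at 0.17 TPM in ConA against 158 to 453 TPM (median 259.6). Tlr9, the receptor for CpG DNA, was at 0.21 TPM in ConA against 22.6 to 92.7 TPM (median 64.9). These sensors were at or near 0 in ConA. Unc93b1, the chaperone that carries nucleic acid sensors to endosomes, was at 20.6 TPM in ConA against 229 to 585 TPM (median 445). The remaining call was Tlr7, with a smallest difference of -2.63, and the adaptor Myd88 was not called at 33.6 TPM in ConA against 44.6 to 164 TPM (median 53.2).

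Il2 and 5 other cytokine genes were higher in the T blasts, and the chemokine Ccl22 was lower. Of 28 cytokine and chemokine genes 6 were called higher and 1 lower, beside 2.83% and 1.81% over all expressed genes. The median difference was 0.40. Il2, the autocrine growth factor of T cells, was at 87.4 TPM in ConA, at 0 in 5 cultures and at 0.14 TPM in aBCD180. At the depth of the LPS library a count of 3 would be 0.22 TPM, a floor that covers counting error only. Il2 was thus read in quantity in the T blasts and nowhere else among the 7 libraries. Lta, which encodes lymphotoxin alpha, was at 444 TPM in ConA against 2.35 to 20.2 TPM (median 9.89). Csf2 (GM-CSF) was at 112 TPM in ConA against 0 to 1.66 TPM (median 0.13). Il3, a growth factor of haematopoietic cells, was at 33.3 TPM in ConA against 0 to 0.11 TPM (median 0). Of these, Lta was the gene with a clear level in the B blasts. Lif had 27.5 TPM in ConA against 0 to 0.23 TPM (median 0.06). Il13, with 10.2 TPM in ConA against 0 to 0.17 TPM (median 0.02), stood at the minimum and was not called in FPKM.

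Unlike Il13, the signature cytokines Ifng, Il4 and Il17a of helper subsets were low in ConA. Il5 was not called, with differences of 1.94 to 2.08 from the cultures and under 10 TPM. Ifng was at 2.16 TPM in ConA against 0 to 2.29 TPM (median 0.17) in the cultures. Il4 was at 0.64 TPM in ConA against 0 to 0.25 TPM (median 0.02). Il17a was at 0.01 TPM in ConA against 0 to 0.04 TPM (median 0). None of the 3 met the rule in either direction. Tnf was at 74.7 TPM in ConA against 7.16 to 70.6 TPM (median 19.4), only just above the highest culture. The gene called lower was Ccl22, a chemokine that attracts CCR4-bearing T cells, at 0.56 TPM in ConA. In the cultures Ccl22 was at 324 TPM in aBCD180, 339 TPM in aCD40+IL4, 71.2 TPM in LPS, 48.5 TPM in LPS+a-d-dextran, 36.3 TPM in LPS+IL21 and 1571 TPM in LPS+IL4. The cultures spread widely in this gene, and LPS+IL4 was highest.

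Cytotoxic genes gave 3 calls of 12, all higher in ConA, beside 2.83% called higher over all expressed genes. The median difference of the list was 1.94. Gzmb, the serine protease granzyme B, was at 872 TPM in ConA, against 13.8 TPM in aCD40+IL4 and at most 0.09 TPM in the other 5 cultures. Its smallest difference of 5.88 becomes 9.65 without aCD40+IL4, the culture with the most NK and CD8 T transcripts. A single culture therefore set the size of this call. Fasl, the death ligand, was at 31.1 TPM in ConA against 0 to 1.56 TPM (median 0.05). Serpinb6b, a serpin of the granzyme inhibitor family, was at 563 TPM in ConA against 0.84 to 70.5 TPM (median 1.60), and reads of its near relatives could be shared. Of the 12 genes 9 lay above every culture, beside 6646 of all 20628 rows and 1412 of the 8615 expressed genes. Only 6 of the 12 reached 10 TPM on a side, and Gzmk was above the cultures by only 0.03. Nkg7, a granule protein of cytotoxic cells, was at 32.8 TPM in ConA against 0.03 to 12.6 TPM (median 1.16). Gzma and Prf1 did not lie above every culture. Gzma was at 0.12 TPM in ConA against 0.20 to 81.8 TPM (median 1.16), with aCD40+IL4 the highest. Prf1, the pore-forming perforin, was at 6.01 TPM in ConA, within 0.63 to 8.37 TPM (median 1.17).

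The receptors for these cytokines were shared in part. Of 22 cytokine receptor genes 4 were called higher and none lower, beside 2.83% called higher over all expressed genes. The median difference was 0.76. Il2ra (CD25), which makes the IL2 receptor high-affinity, was at 445 TPM in ConA against 5.20 to 52.8 TPM (median 14.4) in the cultures. Il2rb, the beta chain, was at 351 TPM in ConA against 2.09 to 72.5 TPM (median 5.28). Its smallest difference of 2.26 becomes 3.66 without LPS+IL4, the highest culture. Thus the alpha and beta chains were higher in the T blasts. The common gamma chain Il2rg was not called, at 448 TPM in ConA against 155 to 337 TPM (median 236). Il12rb2, the inducible IL12 receptor chain, was at 40.3 TPM in ConA against 0.23 to 1.31 TPM (median 0.59). The inducible chain was close to 0 in most cultures. Il7r, which sustains resting T cells, was called at 52.1 TPM in ConA against 1.49 to 7.78 TPM (median 2.14). The unstimulated CD4+ T libraries held more of it, 368 and 275 TPM, against 0.62 TPM in splenic B.

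**Figure D3:**
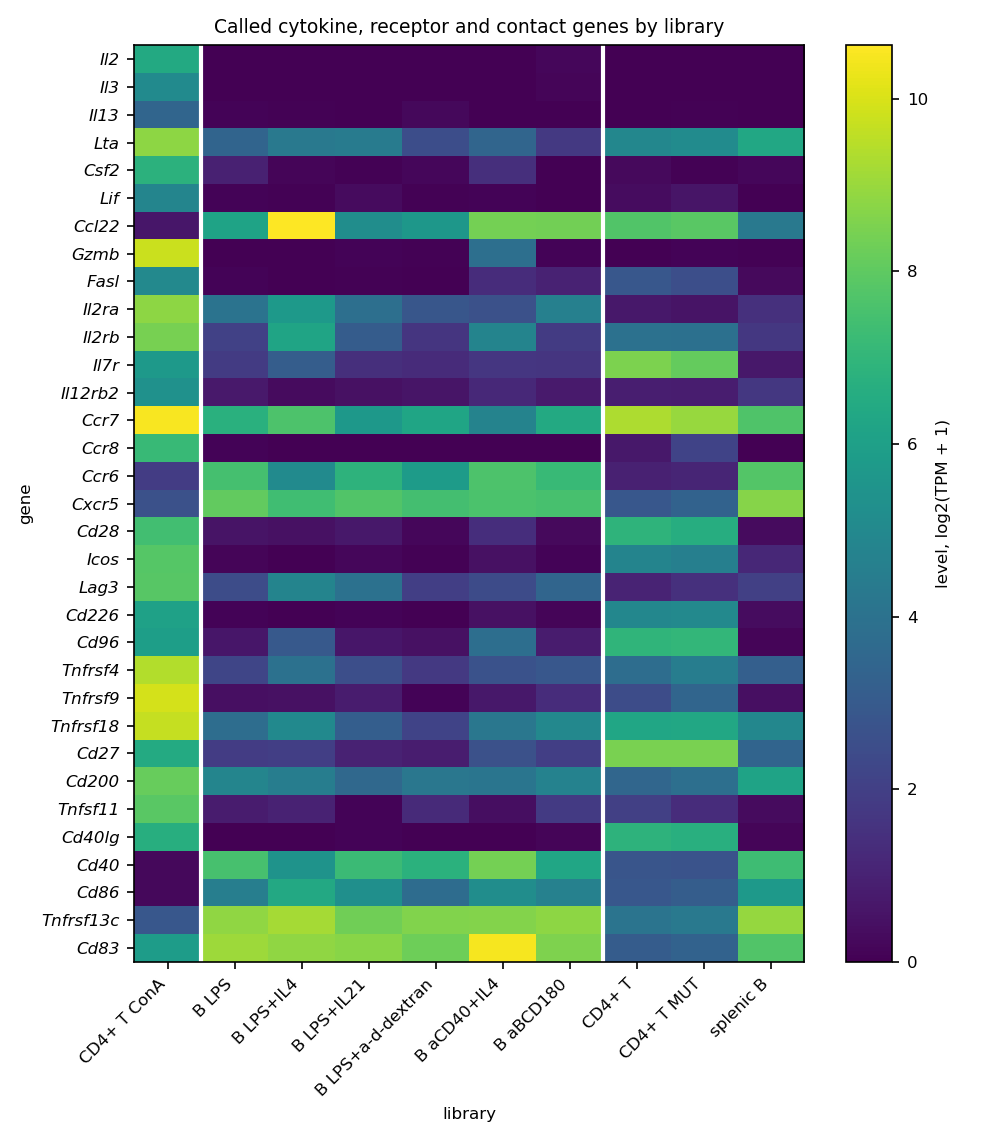
Level as log2(TPM + 1), coloured, of called cytokine, receptor and contact genes with Gzmb and Fasl (rows) in ConA, the 6 cultures and the 3 unstimulated libraries (columns). Il2 is bright in ConA (87.4 TPM) and dark in the other columns, and Cd40 is dark in ConA (0.17 TPM) and bright in the cultures.

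Costimulatory receptors of the TNF and CD28 families were higher in the T blasts as a group. Of 17 costimulatory and inhibitory receptors 10 were called higher and none lower, with a median difference of 4.89. Tnfrsf9 (CD137), an activation-induced costimulatory receptor, was at 982 TPM in ConA against 0.08 to 1.54 TPM (median 0.52) in the cultures. Its smallest difference of 8.60 was the largest among the higher genes. Tnfrsf4 (OX40) was at 679.9 TPM in ConA against 2.39 to 14.8 TPM (median 5.14). Tnfrsf18 (GITR) was at 812 TPM in ConA against 3.35 to 31.8 TPM (median 15.4). All of these were among the abundant transcripts of the T blasts. Icos, a CD28-family receptor, was at 225 TPM in ConA against 0.02 to 0.39 TPM (median 0.10). Cd28 itself was at 167 TPM in ConA against 0.14 to 1.62 TPM (median 0.42). Lag3, an inhibitory receptor that binds class II, was at 231 TPM in ConA against 2.90 to 26.7 TPM (median 7.28). Cd27, which binds CD70, was also called, with a smallest difference of 3.87, and over the 10 genes this ran from 2.15 in Cd96 to 8.60 in Tnfrsf9. The inhibitory receptors Ctla4 and Pdcd1 were not called. Ctla4 was at 127 TPM in ConA against 0.22 to 82.6 TPM (median 0.86), with LPS+IL4 the highest culture. Pdcd1 (PD-1) was at 42.8 TPM in ConA, within 2.97 to 86.7 TPM (median 9.18), and aBCD180 was the highest.

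Of the genes on the B-cell side of the contact, part was lower in ConA. Of 18 TNF-family and B7 genes 2 were called higher and 4 lower, with a median difference of 1.61. Cd40lg, the helper signal to B cells, was at 99.1 TPM in ConA against 0 to 0.11 TPM (median 0.01) in the cultures. Its receptor Cd40 was at 0.17 TPM in ConA against 42.4 to 334 TPM (median 130.1). This pair had the log2 ratio 6.42 in ConA against -8.39 to -5.41 in the cultures. Tnfsf11 (RANKL) was the other gene called higher, at 238 TPM in ConA against 0.09 to 2.46 TPM (median 0.88). RANKL was nearly absent from the cultures. Cd86, a B7 ligand of CD28, was at 0.16 TPM in ConA against 12.4 to 82.7 TPM (median 30.2). Cd80, the other B7 ligand, was not called and lay at 25.6 TPM in ConA against 2.13 to 34.6 TPM (median 3.24). LPS+IL4 was the culture in which Cd80 exceeded ConA. Tnfrsf13c, the BAFF receptor, was at 6.43 TPM in ConA against 320.1 to 586 TPM (median 429). Cd83, a maturation marker of antigen-presenting cells, was called at 58.3 TPM in ConA against 307 to 1408 TPM (median 444). Among 14 ligand and receptor pairs across the T and B contact, the T member was higher in ConA in 9 and the B member lower in 4, and both were called in 3. Cd28 and Cd72 each stand in 2 of these pairs. The sides of these pairs too were assigned by known role, so their direction gives no support. The pairs with both called were Cd40lg with Cd40, Cd28 with Cd86, and Cd5 with Cd72, and in 4 pairs neither member was called.

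A few chemokine receptors were called, in both directions. Of 14 genes 2 were called higher and 2 lower, beside 2.83% and 1.81% over all expressed genes. The median difference was -0.45. Ccr7, the lymph node homing receptor, was at 1445 TPM in ConA against 25.7 to 201 TPM (median 81.2) in the cultures. Ccr8, a receptor of activated T cells, was at 142 TPM in ConA against 0 to 0.06 TPM (median 0). Both were outside the range of the cultures. Cxcr5, the B-follicle receptor, was lower at 5.29 TPM in ConA against 163 to 268 TPM (median 189). Ccr6 was lower too, at 2.68 TPM in ConA against 33.2 to 200.4 TPM (median 127). Among 21 adhesion and migration genes the integrin Itga6 was called higher, and Cd24a and Cd38 lower. At the same shares, these few calls are not read as a result about the list. Cd38, an NAD hydrolase of the cell surface, was at 1.08 TPM in ConA against 34.6 to 118 TPM (median 75.9). For Cd24a, a small glycoprotein, ConA had 17.1 TPM against 82.8 to 1908 TPM (median 698). Its smallest difference of -2.21 becomes -4.60 without aCD40+IL4, and the call is lost under TMM (-1.80) and RLE (-1.78) factors and in FPKM (-1.89).

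In ConA, genes of cell division lay within or below the range of the 6 cultures. Their median level was 69.9 TPM in ConA, against 25.2 TPM in aCD40+IL4 and 115 to 161 TPM in the other cultures. Of 24 DNA replication and mitosis genes none was called, which at the shares over all expressed genes (2.83% and 1.81%) is not a result about these genes. Of these, 17 lay within the range of the cultures and 7 below every culture (3 under TMM or RLE factors), beside 3785 within and 3418 below among the 8615 expressed genes, with a median difference of -0.91 in TPM beside -0.38 over all genes. Mki67, the marker of cycling cells, was at 95.0 TPM in ConA against 40.5 to 253 TPM (median 179.8) in the cultures. It was 6.23 and 7.56 TPM in the unstimulated CD4+ T libraries and 21.1 TPM in splenic B. So ConA and all 6 cultures were above the resting libraries in this gene, and aCD40+IL4 was the lowest culture. Pcna, the clamp of the replication fork, was at 524 TPM in ConA against 429 to 1769 TPM (median 950.3). Ccnb1, the mitotic cyclin, was at 64.0 TPM in ConA against 13.1 to 153 TPM (median 96.2). Of 13 G1 cyclin and inhibitor genes none was called, which at the same shares is not a result about them either. Myc, which drives blast growth, was at 227 TPM in ConA, within the 43.1 to 306 TPM (median 151) of the cultures. Cdkn1a (p21), a brake on the cycle, was at 100.1 TPM in ConA against 1.42 to 37.6 TPM (median 2.50), above every culture but short of the rule.

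Glycolysis gave 1 call of 18 genes. It was Slc2a3, the glucose transporter GLUT3, at 202 TPM in ConA against 13.2 to 34.5 TPM (median 16.4) in the cultures. The other glucose transporter, Slc2a1, was at 115 TPM in ConA against 33.2 to 83.2 TPM (median 41.5). Aldoa, a glycolytic aldolase, was at 2651 TPM in ConA against 714 to 3892 TPM (median 985), with LPS+IL4 above ConA. ConA lay within the range of the cultures in 15 of the 18 genes and below every culture in 0. It lay above every culture in 3 (6 under TMM or RLE factors). Among the 8615 expressed genes 3785 lay within, 3418 below and 1412 above. The median difference of the list was 0.89, beside -0.38 over all expressed genes. With 2.83% called higher and 1.81% lower over all expressed genes, 1 call of 18 is not a result about the list. The median level of the 18 genes was 391 TPM in ConA and 619 TPM in LPS+IL4, against 51.6 to 153 TPM in the other 5 cultures, and 70.1 TPM in splenic B. Eno1, an enolase with near-identical copies in the genome, was at 990.5 TPM in ConA and 1327 TPM in LPS+IL4, against 33.1 to 147 TPM in the other 5 cultures. Reads of its copies could be shared, so the Eno1 value is uncertain.

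The antibody-secretion genes gave 3 calls of 19, all lower in ConA, beside 1.81% called lower over all expressed genes. The median difference of the list was -1.22. Jchain, the joining chain of polymeric antibody, was at 0.22 TPM in ConA against 9.81 to 107 TPM (median 63.1) in the cultures. Its smallest difference of -3.15 becomes -5.14 without aBCD180, the lowest culture. Mzb1, a chaperone of antibody assembly, was at 0.59 TPM in ConA against 274 to 1525 TPM (median 508). Derl3, an endoplasmic reticulum degradation factor, was at 1.17 TPM in ConA against 13.9 to 50.5 TPM (median 38.8). General chaperones were not called. Hspa5 (BiP) was at 311 TPM in ConA against 554 to 1014 TPM (median 833). The GIMAP GTPases, survival genes of lymphocytes, gave none of 8. At the shares over all expressed genes (2.83% and 1.81%) this is not a result about them.

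**Figure D4:**
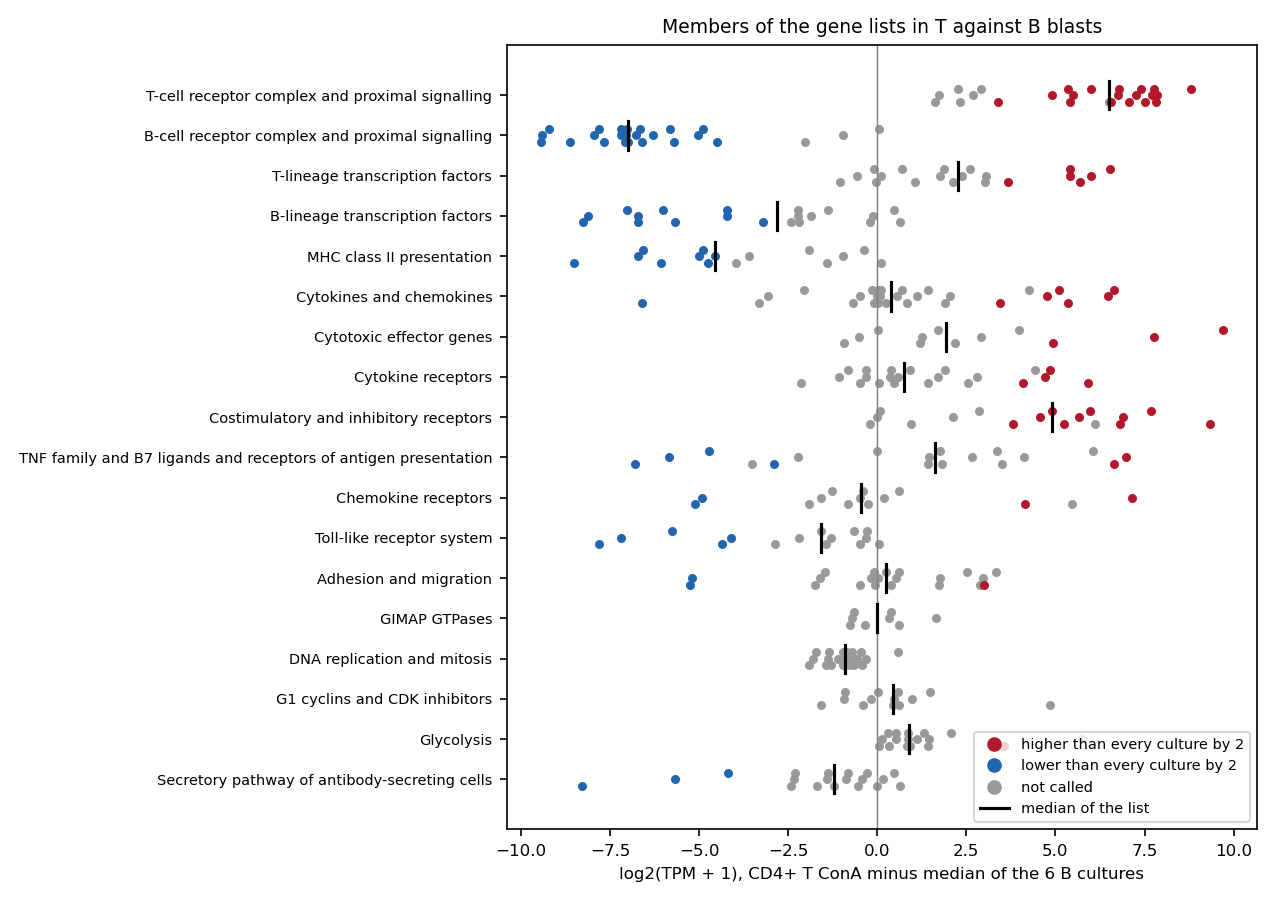
Difference between ConA and the median of the 6 cultures in log2(TPM + 1) for every member of 18 gene lists, with called genes in red (higher) or blue (lower), other members in grey and the list median as a black bar. The medians run from 6.50 in the T-cell receptor list to -7.00 in the B-cell receptor list, and those of replication (-0.91) and GIMAP genes (0.00) lie near 0.

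Libraries of unstimulated cells, which played no part in the calls, were read by the same size. There 274 genes (1.33% of the rows) were higher in both CD4+ T libraries than in splenic B, and 566 (2.74%) were lower, or 3.11% and 6.42% of the genes at 10 TPM on a side. Of the 156 genes lower in the ConA blasts, 135 (86.5%) were lower in the unstimulated T libraries too. Of the 244 higher genes 97 (39.8%) were higher there, and in 87 (35.7%) neither unstimulated T library was above splenic B by as much as 1. As shares of the unstimulated calls, the shared genes were 35.4% of the 274 higher and 23.9% of the 566 lower genes. The median unstimulated difference was 1.96 in the higher genes and -4.79 in the lower genes, beside -0.15 over all expressed genes. Some of the genes described above were higher in the blasts with little or no transcript at rest. Il2 was at 0 TPM in all 3 unstimulated libraries. Il2ra was at 0.62 and 0.46 TPM in the CD4+ T libraries against 1.76 TPM in splenic B. Gzmb was at 0 and 0.08 TPM against 0.03 TPM. None of the 3 was called at rest. Eomes, at 2.13 and 2.42 TPM against 0.06 TPM, was not called at rest. The receptor chains already differed at rest. Cd3e was at 598 and 615 TPM in the CD4+ T libraries against 0.05 TPM in splenic B. Cd40lg was at 116 and 103 TPM against 0.11 TPM. Whether the difference at rest and the difference in blasts are unequal was not tested.

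**Figure D5:**
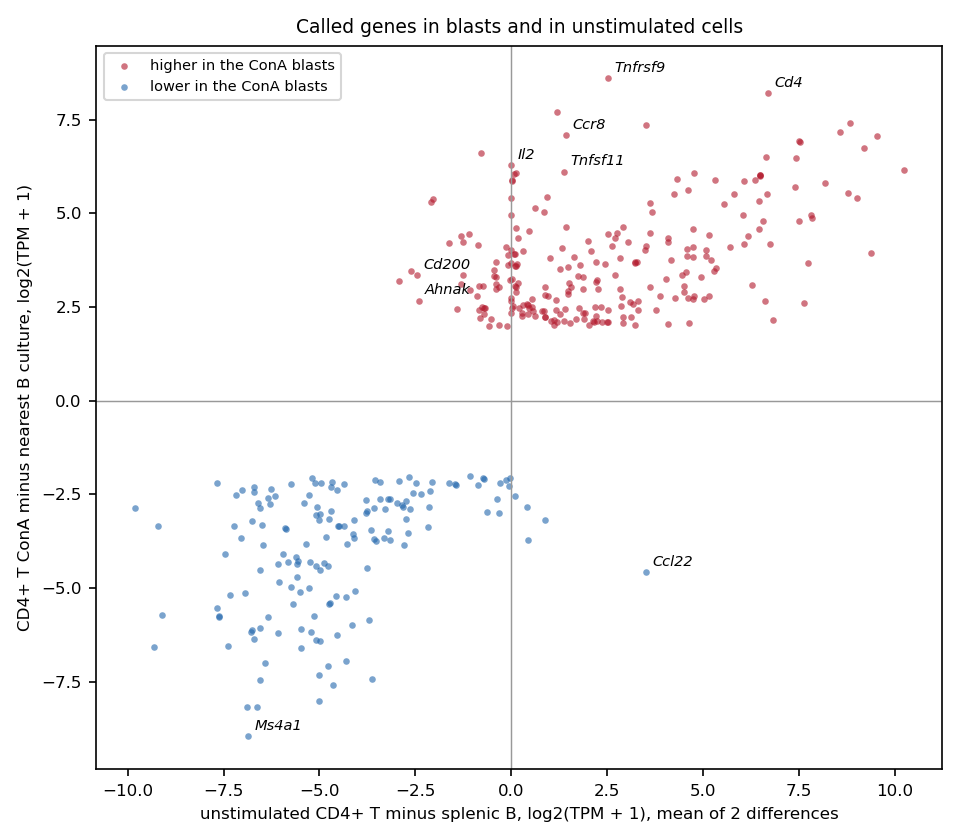
Each of the 400 called genes by the mean difference of the 2 unstimulated CD4+ T libraries from splenic B (horizontal) and the difference of ConA from its nearest culture (vertical), both in log2(TPM + 1). Lower genes gather at lower left (135 of 156 called at rest), and higher genes spread across 0, most of them to its right (97 of 244 called at rest).

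By size alone, 15 of the 25 largest higher genes and 20 of the 25 largest lower genes belong to the lists described. The others name what the lists missed. Nrn1, neuritin, was at 233 TPM in ConA against 0 to 0.12 TPM (median 0) in the cultures. Izumo1r, the folate receptor family protein known as FR4, was at 669 TPM in ConA against 0.50 to 9.29 TPM (median 2.95). Igfbp4, an insulin-like growth factor binding protein, was at 196 TPM in ConA against 0.26 to 1.78 TPM (median 0.82). All 3 were low in the B blasts, Izumo1r least so with 9.29 TPM in LPS+IL4. Crabp2, a retinoic acid binding protein, was at 101 TPM in ConA against 0.08 to 0.55 TPM (median 0.20). Dapl1 was at 147 TPM in ConA against 0 to 0.25 TPM (median 0.08). Hist1h2ao, a histone gene with near-identical copies that can share reads, was at 333 TPM in ConA against 0 to 2.44 TPM (median 0.79) and is uncertain. Among the genes lower in ConA outside the lists were proteases. Napsa, an aspartic protease, was at 0.15 TPM in ConA against 299 to 578 TPM (median 403). Ctsh, the protease cathepsin H, was at 0.02 TPM in ConA against 87.2 to 526 TPM (median 239). Wdfy4, a protein of antigen cross-presentation in dendritic cells, was at 0.10 TPM in ConA against 135 to 303 TPM (median 214). Of the 25 largest lower genes all 25 were lower at rest too, against 17 of the 25 largest higher genes.

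Which culture lay nearest to the T blasts depended on the direction. For the higher genes it was LPS+IL4 in 87 and aCD40+IL4 in 66, then aBCD180 in 44, LPS+IL21 in 30, LPS in 11 and LPS+a-d-dextran in 6. Among the cultures, LPS+IL4 also had the length correction of ConA and the fewest erythroid transcripts, and aCD40+IL4 the most summed CD8 T and NK markers. Stimulus, length correction and other cells therefore cannot be told apart in this ranking. For the lower genes it was LPS+a-d-dextran in 64, LPS+IL4 in 36, aCD40+IL4 in 24, aBCD180 in 20 and LPS+IL21 in 12. At the edge of the rule, Gbe1 (2.0), Mapkbp1 (2.001) and Cmc1 (2.005) were just inside on the higher side, and Tnni1 (1.998), Pvr (1.988) and Galnt6 (1.977) just outside. On the lower side Slc2a6 (-2.02), Zfp385a (-2.03) and Hmgn2 (-2.06) were just inside, and Cpm (-1.98), Hbb-b2 and Hbb-bt (-1.94) just outside.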

How the data were processed

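The series measured poly(A) RNA by RNA-Seq. Per the file headers, the deposited tables hold RSEM-type expected counts, TPM and FPKM per gene. Expected counts are unnormalised estimates by the authors, The deposited TPM correct for gene length and sum to the same total in every library. The deposited FPKM are per kilobase and depth. The submitters' processing notes name bedtools, RSEM, STAR and CASAVA 1.8.2, and the mm10 genome. Their order and settings, and whether counting used strand, are not given in the sources used here. Rows that are not protein-coding were at 0. Protein-coding rows were kept except chromosome Y genes, Tgoln2, Entpd4, Entpd4b and H2-L, which left 20628. The members and gene lists were chosen with earlier results of these data known. The main reading was the rule of size on TPM with a pseudocount of 1, and named genes were the members of the 25 lists (385 genes) and the 25 largest differences in each direction. As alternatives, other pseudocounts, thresholds, scalings, FPKM, single cultures, omitted cultures and edgeR 4.0.16 (quasi-likelihood, Benjamini-Hochberg) were tried. For edgeR, expected counts were rounded (85.9% were whole within 1e-09). The edgeR fit takes the lone ConA library to vary like cultures under different stimuli, and on simulated data for this comparison (13836 genes) it recovered 9 of 100 genes changed 4-fold and 53 of 100 changed 16-fold, with 9 false calls in all. Promoter windows came from RefSeq. Values of a few list members are not reported here.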

Additional observations from a re-analysis of the deposited data

Results flagged for a closer look

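In 3 genes the T and B difference met the rule of size one way in the blasts and the other way in the unstimulated libraries, and none of these contrasts between states was tested. At the smaller size of at least 1 in both unstimulated T libraries, 13 of the 244 higher genes and 1 of the 156 lower genes had the opposite sign at rest. Cd200, a ligand of an inhibitory receptor, was at 287 TPM in ConA against 11.1 to 27.4 TPM in the cultures, a smallest difference of 3.34, while the unstimulated CD4+ T and CD4+ T MUT libraries had 10.4 and 13.7 TPM against 69.6 TPM in splenic B. Ahnak, a large scaffold protein, was at 102 TPM in ConA with a smallest difference of 2.67 from the cultures, and its unstimulated differences were -2.05 (CD4+ T) and -2.78 (CD4+ T MUT). Ccl22 was at 0.56 TPM in ConA against 36.3 to 1571 TPM in the cultures, a smallest difference of -4.58, while the unstimulated CD4+ T libraries had 209.9 and 239.7 TPM against 18.6 TPM in splenic B.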

How the results depend on the processing

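Asking for a difference of at least 1 gave 452 higher genes, 391 lower genes and 15 pairs with both members called, and asking for at least 3 gave 150 and 94 genes. Set against the median of the cultures, 490 genes were higher and 317 lower, with 16 pairs. Against LPS+IL4 alone these were 372 and 382 genes, and against LPS+IL21 alone 531 and 425, with 15 pairs. The edgeR test called 687 higher genes (185 lower) and 13 pairs at an adjusted p threshold of 0.05, with 213 of the 244 and 112 of the 156 genes among them, and 2950 genes at an unadjusted p under 0.05. Why edgeR called more higher genes was not tested. Differences of at least 1 gave 1773 unstimulated genes, against 840 at 2. Leaving out each culture in turn gave 246 to 330 higher genes, 151 to 187 lower genes and 8 to 10 pairs, and leaving out either unstimulated T library 911 to 924 genes. The 330 and the 187 came without LPS+IL4. A pseudocount of 0.1, a lower or no TPM minimum, TMM or RLE scaling and FPKM kept each count within 1.5 times. The pseudocount of 0.1, which by its construction widens differences from values near 0, moved 10 named genes by over 1.5 times: Cybb to -9.44, Rasgrp3 to -7.24, Ciita to -7.14, Cr2 to -6.10, Cd86 to -5.58, Fcrl5 to -5.31, H2-Eb2 to -5.12, Jchain to -4.95, Adgre1 to -4.75 and Il13 to 5.25. None of the 129 named called genes reversed under any alternative run on them. Since they were chosen as at least 2 from every culture, this was nearly fixed beforehand and gives no support. In FPKM 125 were still called, and H2-Eb2, Cd24a, Adgre1 (-1.59) and Il13 were lost. Adgre1 also lost its call, because the median of the cultures fell under 10 TPM, without LPS+IL4, without aCD40+IL4 or without aBCD180. No paired analysis was possible because each label has 1 library. Without replicate libraries, the spread between ConA cultures is unknown, and at the depth of the LPS culture low TPM values rest on few counts.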
